A study of Oryza sativa with 8 samples.

Results

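Some genes lie on top of each other, written on opposite strands of the same stretch of chromosome. Such pairs were examined in stem tissue of rice (Oryza sativa). Members were chosen from the deposited coordinates alone: a gene model was taken when it shared at least 100 bases with another gene model on the same chromosome and the opposite strand. The rule took 1371 of the 55986 gene models, or 2.45%, which formed 693 pairs. No read count entered the choice.

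Transcripts of such a pair carry stretches that are complementary to each other, and each is called a natural antisense transcript of its partner. In plants these pairs are known for several outcomes: both partners can be transcribed side by side, the polymerases can hinder each other, or the complementary RNAs can give rise to small interfering RNAs. A classic case, known from Arabidopsis, is a salt-responsive pair whose overlap yields small RNAs that cleave one of the transcripts. Only sequencing that keeps the strand of each RNA can assign the shared bases to one gene or the other.

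Rice plants of the lines SM, which the labels call susceptible to the yellow stem borer, and SM92, which they call tolerant, were grown in the field to the booting stage. Larvae of the borer, a moth that feeds inside rice stems, were put on tillers by hand, and about the site of attack the stem was taken after 72 hours. Each line gave 2 samples from infested stems and 2 from stems left without larvae and taken at the matching time, 4 groups in all. Ribosomal RNA was depleted before strand-specific libraries were made, so RNA without a poly(A) tail and unspliced RNA could also be read.

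The 8 count columns name the line through their table and nothing else. Which column belonged to infested plants, or to which replicate, could not be worked out, so every comparison below is of SM92 (4 libraries) with SM (4 libraries), infested and uninfested together. The libraries are called SM 1 to 4 and SM92 1 to 4 in the order of the columns, as names only. They held between 50540724 and 57603629 fragments assigned to genes. Since each line was counted into a table of its own, line and table cannot be told apart. The identifiers matched no entry of the gene table at hand, so the members have no names or functions here, and markers of stem tissue could not be checked.

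The libraries were not evenly independent. Over genes, the chi-square of the counts per gene was 3.12 between SM 3 and SM 4, 1.86 between SM92 1 and SM92 2, and 1.62 between SM92 3 and SM92 4. Between SM 1 and SM 2 it was 95.7, and all other pairs of libraries stood at 254 or more. Line differences are therefore given with the 8 libraries and again with the 3 nearly agreeing pairs summed, which leaves 3 samples of SM and 2 of SM92. Nothing in the labels says that libraries came from separate plants, so p-values measure only the spread between these libraries.

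Most of the overlaps were tail to tail. In 518 pairs (74.7%) the genes pointed at each other and shared their 3′ ends, here called convergent. In 66 pairs (9.52%) they pointed apart and shared their 5′ ends, called divergent. In 109 pairs (15.7%) one gene model lay wholly inside the other, called contained. The shared stretch ran from 100 to 6854 bases with a median of 904 and quartiles of 511 and 1428, and covered a median of 34.3% of the shorter gene. Nearly all members, 1359, had a single partner, while 9 had 2 partners and 3 had 3. Chromosome 1 carried the most pairs, 117, and chromosome 3 the most for its genes, 108 pairs or 19.4 per 1000 gene models. Chromosome 11 had the fewest on both counts, 31 pairs or 7.45 per 1000. Members were long gene models, with a median span of 3943 bases against 2393 over all.

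Both strands of these loci were commonly transcribed in the stem. A gene was called read when its mean over the 8 libraries was at least 1 CPM, that is 1 fragment in 1000000 assigned to genes, after trimmed-mean scaling. Both partners were read in 428 of the 693 pairs (61.8%), 1 partner in 219 (31.6%) and neither in 46 (6.64%). Of the members, 1066 (77.8%) were read, against 37.4% of all gene models. Only 35 members (2.55%) had no fragment in any library, against 20.2% of all gene models. Among read genes the members were not higher: their median level was 3.52 CPM per kb of gene span, against 4.38 for all read genes. The greater length of the members moves with these shares, and its part in them was not tested.

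The arrangement of the pair went with how often both partners were read. Both were read in 353 convergent pairs (68.1%) and 58 contained pairs (53.2%), but in 17 divergent pairs (25.8%). In divergent pairs the usual state, 39 of 66 (59.1%), was 1 partner read and the other below 1 CPM. For comparison, adjacent opposite-strand genes that share no base were taken from the same coordinates, 26568 pairs. Genes that overlap any opposite-strand gene by 1 base or more were left out of these neighbours. Of the genes in neighbour pairs 35.6% were read, against 77.8% of members. Both partners were read in 18.1% of them, in 28.9% of the 4832 convergent neighbours separated by at most 1 kb, and in 22.0% of the 1762 divergent neighbours as close. In this share divergent overlapping pairs stood near their close neighbours, while convergent overlapping pairs stood well above theirs. The other shares of divergent pairs were unlike. A single partner was read in 59.1% of overlapping pairs and 37.2% of close divergent neighbours, and neither in 15.2% and 40.9%. These shares are descriptions of one annotation, without a test. The median gene span was 3993 bases in convergent overlapping pairs and 2941 in close convergent neighbours. The part of span and of the left-out genes in these shares was not tested. By length, both partners were read in 48.0% of the 171 overlaps of 100 to under 500 bases, 62.8% of the 215 from 500 to under 1000, 71.7% of the 226 from 1000 to under 2000, and 60.5% of the 81 longer ones.

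**Figure D1:**
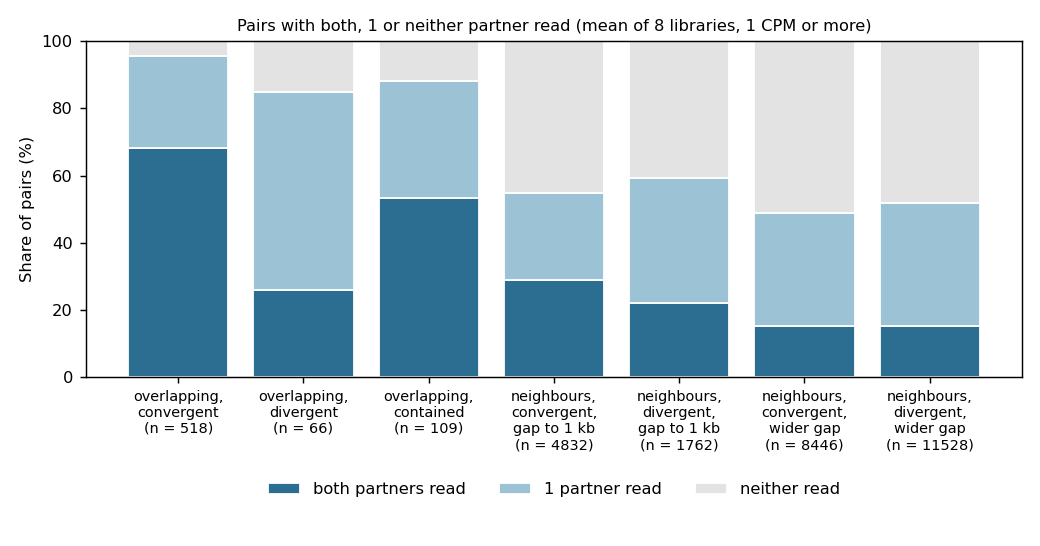
Share of pairs (%, vertical axis) with both partners, 1 partner or neither at a mean of 1 CPM or more, for the 3 arrangements of overlapping pairs and for neighbouring opposite-strand genes that share no base. Both partners were read in 68.1% of convergent overlapping pairs and in 25.8% of divergent ones.

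Being read together did not mean being read alike. In 433 pairs each partner had a mean of at least 50 fragments, and the partners' levels per kb of span differed by a median of 3.31-fold. The median was 3.18-fold in convergent, 2.75-fold in divergent and 4.73-fold in contained pairs, and 3.50-fold between neighbours that share no base. Partners lay within 2-fold of each other in 142 of the 433 pairs (32.8%; 29.4% of neighbours). Neither strand was favoured strongly: the plus-strand gene was the stronger per kb in 317 of all 693 pairs, the minus-strand gene in 369, and 7 were equal. Of the 109 contained pairs, the inner gene was the higher in 42 and the outer gene in 66. The weaker partner reached 1 CPM per kb in 311 pairs (44.9%), 5 in 64 pairs and 10 in 18 pairs.

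**Figure D2:**
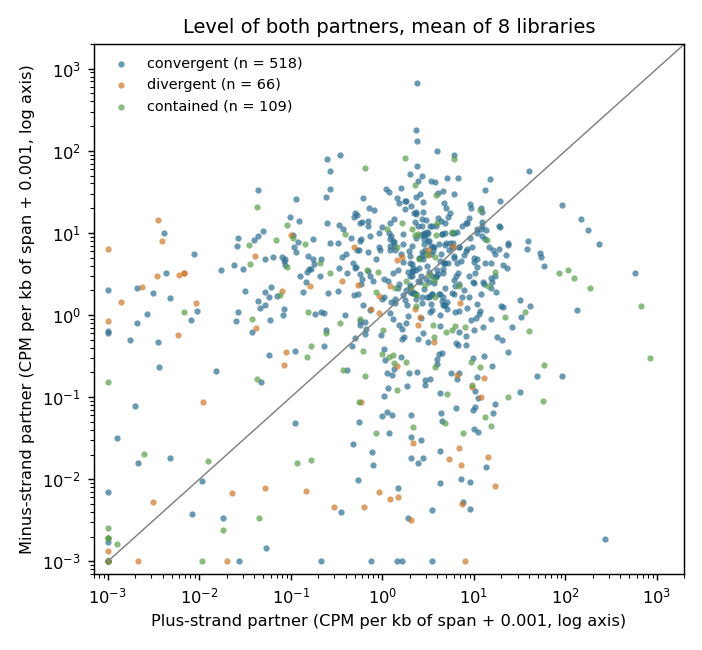
Mean level over 8 libraries of the plus-strand partner (horizontal) and the minus-strand partner (vertical) of each of the 693 pairs, in CPM per kb of span plus 0.001 on log axes. Colour gives the arrangement and the line marks equal levels. Most convergent pairs fall in the cloud where both partners are above 1, and many divergent pairs lie along either axis.

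Beside strongly read genes the opposite strand ranged from silent to equal. In 376 pairs the stronger partner had 20 CPM or more. The fragments of the weaker partner amounted to a median of 10.1% of those of the stronger. In 52 of these pairs the weaker partner had 50% or more, in 138 it had 10% to 50%, in 107 it had 1% to 10%, and in 79 (21.0%) it stayed below 1%. At 22 of the latter the share was above 0 and at most 0.1%, and at 2 the weaker partner had no fragment at all. How much of a low share came from fragments assigned to the wrong strand was not tested. Requiring the weaker partner to have at least 1% of the stronger left 421 of the 428 pairs read on both strands. Both partners of those 428 already had 1 CPM or more, so only pairs with a very strong partner could fall out. That count therefore cannot decide how much came from the wrong strand.

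**Figure D3:**
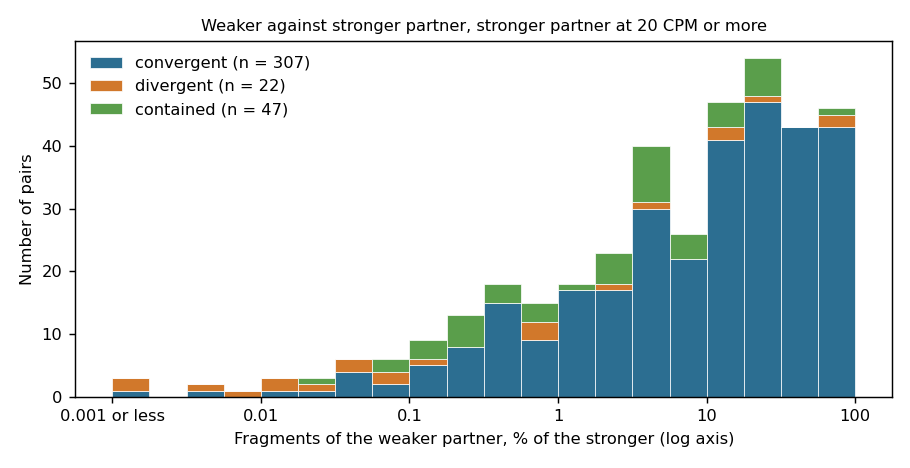
Number of pairs (vertical axis) by the fragments of the weaker partner as a percentage of those of the stronger (log axis), for the 376 pairs whose stronger partner had 20 CPM or more. Convergent pairs pile up above 10%, and divergent pairs make up much of the tail below 0.1%.

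Of the pairs in which one strand was all but silent beside a strong gene, 3 are given here, picked after their values were seen. Their low counts are what picked them, and the counts cover whole gene spans rather than the shared bases alone. They therefore give no rate of fragments assigned to the wrong strand. LOC_Os01g39060, on the plus strand of chromosome 1 (21955893 to 21963353 in the deposited coordinates of the MSU release 7 annotation), had 7098, 7022, 8020 and 7336 fragments in SM 1 to 4 and 5509, 5807, 6936 and 6816 in SM92 1 to 4. Its divergent partner LOC_Os01g39050 (21949940 to 21956491, 599 bases shared) had 1, 2, 2, 7, 4, 4, 0 and 1 fragments in the same order. That is 0.0385% of the fragments of its partner, with no library of either line above 7. LOC_Os01g43480 and LOC_Os01g43490, convergent over 862 bases of chromosome 1 (24899165 to 24900026), differed nearly as much. The plus-strand gene had between 17043 and 44349 fragments per library and the minus-strand gene between 9 and 46, or 0.0942%. LOC_Os05g28980, on the minus strand of chromosome 5 (16988831 to 16995623), had 1781 to 2668 fragments per library, while LOC_Os05g28990, which overlaps its start by 334 bases, had none in any of the 8. A total of 0 over the libraries allows up to 3 fragments, and such limits cover counting error only.

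At the other end stand pairs in which both strands were strongly read, and the 3 with the highest weaker partner per kb were all convergent. The first lay on chromosome 12, with a plus-strand gene at 24454957 to 24459824, a minus-strand gene at 24458153 to 24462001 and 1672 shared bases. The plus-strand gene had levels of 35.5, 33.0, 39.7 and 39.3 CPM per kb in SM 1 to 4, and of 48.4, 49.7, 39.3 and 39.1 in SM92 1 to 4. The minus-strand gene had 43.2, 34.5, 40.4 and 40.2 in SM, and 60.9, 60.8, 89.7 and 88.7 in SM92. In SM the partners were level with each other, and in SM92 the minus-strand gene stood above every SM library. Its log2 fold change was 0.92 ± 0.17 (SE; edgeR quasi-likelihood, adjusted p = 0.00412), and 0.94 with an adjusted p of 0.0765 once agreeing libraries were summed. The plus-strand gene differed by 0.26 ± 0.13 (edgeR adjusted p = 0.144), and 0.417 after summing, and its groups overlapped.

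The second, LOC_Os08g44380 and LOC_Os08g44390 on chromosome 8 (1229 bases shared, 27931449 to 27932677), showed a pattern that the lines did not divide. The plus-strand gene LOC_Os08g44380 had 112, 140, 68.4 and 67.2 CPM per kb in SM 1 to 4 and 96.9, 97.2, 77.0 and 75.3 in SM92 1 to 4. LOC_Os08g44390 had 6.34, 8.27, 50.6 and 51.7 in SM, and 9.05, 8.83, 20.8 and 21.1 in SM92. In both lines the libraries with more of the plus-strand gene were those with less of the minus-strand gene. The partner ratio (plus over minus, per kb) was 4.14, 4.08, 0.43 and 0.38 on the log2 scale in SM, and 3.42, 3.46, 1.89 and 1.83 in SM92. Between the lines neither gene passed the test (log2 fold changes of -0.16 ± 0.26 and -0.97 ± 0.73, edgeR adjusted p = 0.658 and 0.338; 0.666 and 0.785 after summing). Whether this split follows infestation cannot be told from the columns.

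The third, also on chromosome 12, joined a plus-strand gene at 27021972 to 27026029 and a minus-strand gene at 27025277 to 27029985 over 753 bases. The plus-strand gene kept between 16.2 and 22.4 CPM per kb in all 8 libraries. The minus-strand gene had 28.9, 21.6, 42.6 and 41.9 in SM, and 17.4, 17.6, 13.5 and 13.1 in SM92, without overlap of the groups. The stronger partner was thus the minus-strand gene in every SM library and the plus-strand gene in every SM92 library. The minus-strand gene differed by -1.13 ± 0.24 (log2, edgeR adjusted p = 0.00718, and 0.142 with agreeing libraries summed), and the log2 partner ratio by 0.98 ± 0.21 (limma adjusted p = 0.00815; 0.90 and 0.165 summed).

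In the other arrangements the highest weaker partner was lower. Among divergent pairs the one with the highest weaker partner per kb, chosen after its values were seen, was LOC_Os02g09900 and LOC_Os02g09890 on chromosome 2, which share 275 bases at their 5′ ends (5121678 to 5121952). The former had between 4.87 and 6.95 CPM per kb and the latter between 6.59 and 7.35 across the 8 libraries, and neither passed the test between the lines (edgeR adjusted p = 0.265 and 0.694; 0.681 and 0.898 after summing). Among contained pairs, also chosen after values were seen, the highest weaker partner was a plus-strand gene of chromosome 3 (9632645 to 9636759) that lies whole inside a minus-strand gene (9632645 to 9642093). The inner gene had 9.46, 6.70, 6.63 and 7.50 CPM per kb in SM 1 to 4 and 17.8, 16.7, 13.4 and 14.2 in SM92 1 to 4, so the groups did not overlap. The outer gene had 15.6 to 23.3 with overlapping groups. The inner gene differed by a log2 fold change of 1.04 ± 0.15 (edgeR adjusted p = 0.00137), and by 1.01 with an adjusted p of 0.0555 after summing.

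The longest overlap of all, 6854 bases on chromosome 6 (16706401 to 16713254), lay in nearly silent genes. The outer gene had 4, 3, 7 and 7 fragments in SM and 19, 20, 30 and 34 in SM92, and the inner gene LOC_Os06g29270 had 2 fragments in SM 3, 2 in SM92 4 and none elsewhere. The outer gene's log2 fold change was 2.55 ± 0.41 (edgeR adjusted p = 0.00216; 0.0536 after summing). The longest overlap with both partners read in every library was 4808 bases, where LOC_Os06g05860 lies inside LOC_Os06g05870 (2678974 to 2683781 of chromosome 6). The inner gene had 14.5, 13.6, 10.6 and 10.4 CPM per kb in SM and 13.9, 14.2, 14.4 and 13.7 in SM92. The outer gene had 1.34 to 1.92, far below its inner partner in every library. Neither passed the test between the lines (edgeR adjusted p = 0.265 and 0.827; 0.719 and 0.794 after summing).

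Of the 3 genes with 3 partners, a single one was well read. LOC_Os12g02660, spanning 906832 to 927900 of chromosome 12, had a mean of 9.79 CPM per kb, from 4.50 to 16.1 across libraries. Its 3 opposite-strand partners had means of 2.85, 0.39 and 2.48 CPM per kb. The other 2, on chromosomes 2 and 5, were at or near 0 together with all their partners. On chromosome 5 the 3 partners start at the same base, 15270266, and end at 15278107 or 15278222, so they mark nearly the same stretch. On chromosome 2 some partners also overlap each other. Whether fragments shared by gene models on the same strand were assigned to any of them was not examined.

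Across the 8 libraries the partners showed no common tendency to rise or fall together. After each line's mean was taken out, Pearson's r between the log2 CPM of the partners had a median of 0.06 over the 433 pairs, with quartiles of -0.59 and 0.61. The median was 0.07 in convergent, 0.05 in divergent and 0.02 in contained pairs. Neighbours that share no base had a median of 0.13, which was 0.07 for close convergent and 0.28 for close divergent neighbours. These r are descriptions over 8 points that share their libraries, of which 3 pairs nearly repeat each other. The quartiles lay nearly evenly on either side of 0.

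Members differed between the lines about as often as genes at large with 8 libraries, and somewhat less often after summing. With 8 libraries, 36.4% of all 24892 genes tested passed an adjusted p of 0.05 (edgeR), 16.7% higher and 19.7% lower in SM92. Of the 1183 members tested, 398 (33.6%) passed, 192 higher (16.2%) and 206 lower (17.4%). With agreeing libraries summed, 9.41% of 27531 genes passed (4.38% higher, 5.03% lower), and 80 of 1225 members (6.53%), 34 higher and 46 lower. Passing in both fits in the same direction were 78 members (6.59%, against 9.53% of all genes), 33 higher and 45 lower in SM92. Without scaling beyond library totals, 37.1% of all genes and 397 members passed with 8 libraries, but 124 members were higher and 273 lower (11.9% and 25.2% of all genes), since that choice moves the median log2 fold change of all genes to -0.16. The members' own median was 0.02 (quartiles -0.48 and 0.46), against 0.00 for all genes (-0.56 and 0.48). With DESeq2, 38.1% of members passed against 36.6% of all genes, and with no filter on low counts 26.6% against 21.1%. These 2 backgrounds take in 33531 and 44672 genes, against 24892 in the filtered fit, so the shares are not like for like. The members' share was below the background in the fits above and above it in these. No difference of the lines particular to overlapping genes is drawn from it.

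Pairs in which both partners differed between the lines were few. Over all arrangements together they were about as common as among neighbours with 8 libraries, and less common after summing. Of 532 pairs with both partners tested in the 8-library fit, 39 (7.33%) had both partners past the threshold in the same direction, 16 of them higher in SM92, and 27 (5.08%) in opposite directions. In 234 pairs a single partner passed and in 232 neither did. Neighbours that share no base gave 7.73% and 4.80% of 6329 pairs. By arrangement, same and opposite directions numbered 23 and 23 of 425 convergent pairs, 11 and 4 of 80 contained pairs, and 5 and 0 of 27 divergent pairs. With agreeing libraries summed, 3 of 568 pairs (0.53%) went the same way and 1 (0.18%) opposite ways. Of 7347 neighbours 67 (0.91%) and 32 (0.44%) did. The shares after summing rest on few overlapping pairs, and their difference was not tested. The opposite-direction count also depended on single libraries. It was 14 and 11 without SM 3 and SM 4, and 12, 10 and 16 without SM92 1, SM92 2 and SM92 3. In these fits the opposite-direction share was 1.85% to 2.96% of overlapping pairs. That of neighbours fell as well, from 4.80% to between 3.06% and 3.52%.

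**Figure D4:**
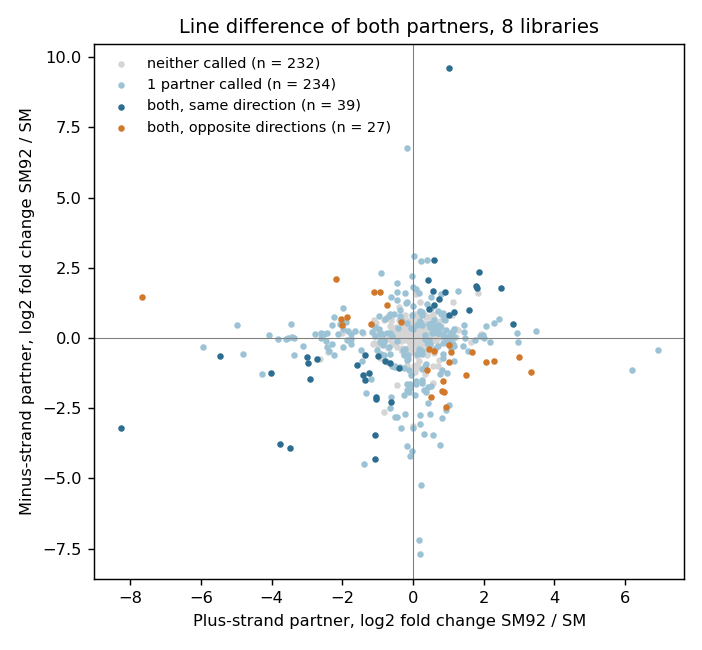
Log2 fold change of SM92 over SM for the plus-strand partner (horizontal) and the minus-strand partner (vertical) of the 532 pairs with both tested, from the 8-library fit. Dark blue marks the 39 pairs past the threshold in the same direction and orange the 27 in opposite directions. In 234 of the other pairs 1 partner passed (light blue) and in 232 neither did (grey).

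A single pair went in opposite directions in both fits. LOC_Os02g01140 and LOC_Os02g01150 lie at the start of chromosome 2 and share 1097 bases at their 3′ ends (78483 to 79579), which is 77.8% of the former. LOC_Os02g01140, on the plus strand (78170 to 79579), had 121, 259, 111 and 110 fragments in SM 1 to 4 and 1, 0, 1 and 0 in SM92 1 to 4. It was read in every SM library and all but absent from every SM92 library. The minus-strand partner LOC_Os02g01150 (78483 to 82952) had 5.21, 5.61, 4.89 and 5.25 CPM per kb in SM, and 17.8, 17.7, 11.7 and 11.1 in SM92, so every SM92 library stood above every SM library.

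LOC_Os02g01140 was lower in SM92 (edgeR adjusted p = 0.000111, and 0.00799 after summing). With 2 fragments in all of SM92, the scaled ratio of the line sums was 252, with an exact 95% interval of 69.5 to 2088 that covers counting error only. LOC_Os02g01150 was higher by a log2 fold change of 1.48 ± 0.18 (edgeR adjusted p = 0.000569; 0.0268 after summing). The log2 ratio of the partners differed by -8.53 ± 0.54 (limma adjusted p = 1.57e-05; 0.00187 after summing), the largest called ratio difference among the pairs with at least 50 fragments on average in both partners. Its size depends on the 0.5 fragments added to each count.

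Of the pairs with opposite directions in the 8-library fit, the one ranked first by the smaller of its 2 changes lay on chromosome 3. LOC_Os03g20730, on the minus strand (11730942 to 11731439), spans 498 bases and lies wholly inside the 3′ part of LOC_Os03g20720 (11724995 to 11731577). LOC_Os03g20720 had 2.89, 2.64, 4.71 and 4.65 CPM per kb in SM 1 to 4, and 0.208, 0.283, 1.37 and 1.43 in SM92 1 to 4. LOC_Os03g20730 had 9.22, 8.76, 18.5 and 22.5 in SM, and 26.2, 26.0, 96.5 and 102 in SM92. In neither gene did the lines overlap, and the spread within a line was wide. The outer gene was lower by -2.18 ± 0.65 on the log2 scale (edgeR adjusted p = 0.0321), and the inner gene higher by 2.09 ± 0.58 (edgeR adjusted p = 0.0238). Neither call held after summing (0.173 and 0.0986). That of the outer gene was also lost without SM 3 (0.0716), SM 4 (0.0712) or SM92 2 (0.0626). That of the inner gene was lost without SM 1 (0.0595), SM 2 (0.0543), SM92 3 (0.0587) or SM92 4 (0.0590).

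The ratio of these partners had a smaller standard error than the fold change of either gene. On the log2 scale it was -1.68, -1.73, -1.97 and -2.28 in SM, and -6.97, -6.51, -6.13 and -6.15 in SM92. It differed by -4.53 ± 0.26 (limma adjusted p = 8.53e-06; -4.59 and 0.00299 after summing). Levels of both partners were higher in SM 3 and SM 4 than in SM 1 and SM 2, and in SM92 3 and SM92 4 than in SM92 1 and SM92 2.

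Other pairs are given by their place. Of the pairs that went the same way, the one ranked first by the smaller of its 2 changes was convergent on chromosome 3, sharing 17261821 to 17262960. Its plus-strand gene had 24.6, 4.66, 21.0 and 21.1 CPM per kb in SM, and 1.35, 1.57, 1.60 and 1.89 in SM92. Its minus-strand gene had 0.227, 0.552, 0.732 and 0.765 in SM, and 0.0562, 0.0395, 0.0238 and 0.0282 in SM92. Every SM92 library was below every SM library on both strands. The log2 fold changes were -3.48 ± 0.48 and -3.92 ± 0.48 (edgeR adjusted p = 0.00105 and 0.000548), and after summing only the minus-strand gene passed (0.0598 and 0.0405).

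The next such pair was convergent on chromosome 9 (17748110 to 17748913 shared) and higher in SM92. The plus-strand gene had 1.55, 1.95, 0.647 and 0.597 CPM per kb in SM, and 5.83, 5.39, 2.80 and 3.26 in SM92. The minus-strand gene had 0.250, 0.0373, 0.236 and 0.257 in SM, and 0.828, 0.749, 1.24 and 1.19 in SM92. The log2 fold changes were 1.86 ± 0.46 and 2.35 ± 0.53 (edgeR adjusted p = 0.0145 and 0.0102), and neither passed after summing (0.133 and 0.122).

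One pair passed in the same direction in both fits, and it is named for that after its values were seen. It is divergent on chromosome 6 and shares 527 bases (16481194 to 16481720). The plus-strand gene had 57, 25, 42 and 42 fragments in SM and none in any SM92 library, which makes it at least 46.4-fold higher in SM against a floor of 3 fragments over the line. The minus-strand gene had 275, 274, 250 and 235 fragments in SM, and 26, 20, 20 and 28 in SM92, a log2 fold change of -3.19 ± 0.21. Adjusted p from edgeR was 0.000895 and 2.67e-05 with 8 libraries, and 0.0219 and 0.00917 after summing. The other 2 pairs that went the same way after summing lie on chromosome 12 (19203972 to 19205185) and chromosome 7 (537981 to 538317). In each, one partner had no fragment in one line: the minus-strand gene of the former in SM92, against 154 in SM, and the plus-strand gene of the latter in SM, against 28 in SM92.

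**Figure D5:**
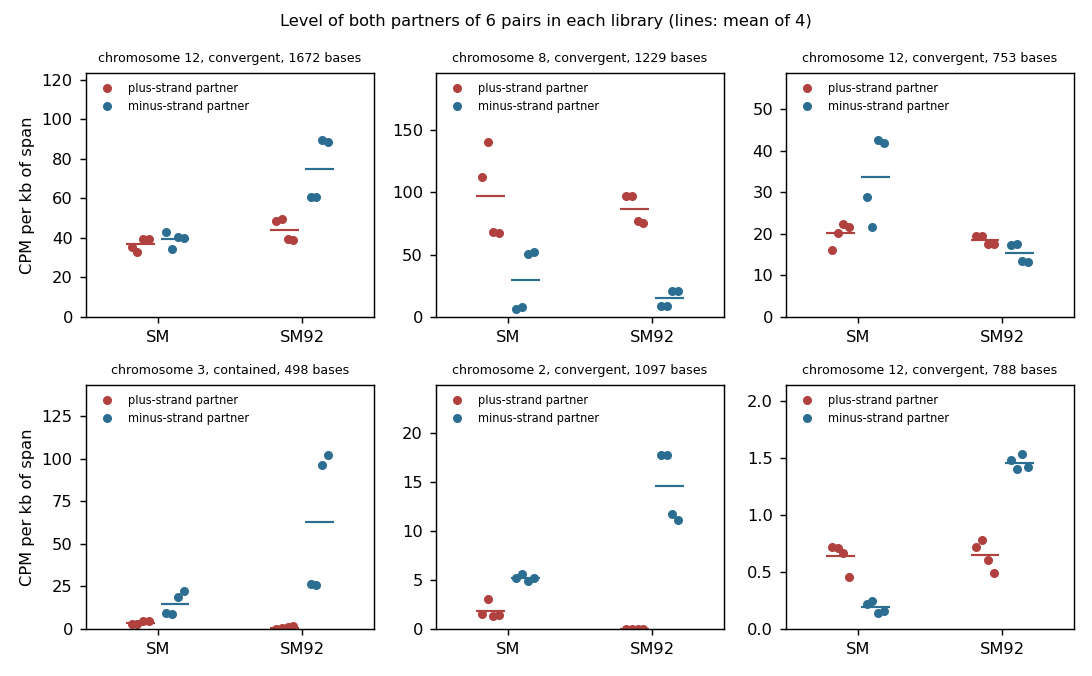
Level in CPM per kb of span (vertical axis, from 0) of the plus-strand (red) and minus-strand (blue) partner of 6 pairs in each of 4 SM and 4 SM92 libraries, with the mean as a line. In the upper row are the 3 pairs with the highest weaker partner. In the lower row are the 2 pairs ranked first among those with opposite line differences and a pair whose stronger partner differs by line. On chromosome 2 the plus-strand partner lies near 0 in SM92 while the minus-strand partner runs from 11.1 to 17.8.

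The ratio within a pair needs no scaling between libraries, and it differed between the lines as often in overlapping pairs as elsewhere. With 8 libraries, 37.0% of all 6861 opposite-strand pairs passed (limma, adjusted p of 0.05), and 203 of the 532 overlapping pairs (38.2%), against 37.0% of the 6329 neighbours. After summing, 11.0% of 7915 pairs passed, 55 of 568 overlapping pairs (9.68%) and 11.1% of neighbours. Both fits called 53 overlapping pairs. With 8 libraries the calls took in 161 of 425 convergent (37.9%), 34 of 80 contained (42.5%) and 8 of 27 divergent pairs (29.6%).

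The stronger partner was mostly a fixed feature of the pair. Of the 433 pairs with at least 50 fragments on average in both partners, 304 (70.2%) had the same stronger partner per kb in all 8 libraries, against 72.2% of neighbours. In 16 pairs (3.70%, against 4.95% of neighbours) one gene was the stronger in all 4 libraries of SM and the other in all 4 of SM92. The ratio test passed for all 16 with 8 libraries and for 8 after summing. Lines that do not overlap are what selected these 16, so that count of calls is a description.

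Of the 16, the pair ranked first by the smaller of its 2 mean log2 ratios lay on chromosome 3 (7675743 to 7676854 shared). Its plus-strand gene kept 1.86 to 2.74 CPM per kb in all 8 libraries. Its minus-strand gene had 13.3, 4.67, 22.5 and 25.1 in SM, and 0.0275, 0.0270, 1.71 and 1.88 in SM92. In SM92 3 and SM92 4 the partners were nearly level, with log2 ratios of 0.12 and 0.06. The plus-strand gene's log2 fold change was -0.07 ± 0.16 (edgeR adjusted p = 0.746). That of the minus-strand gene was -4.18 ± 1.26 (edgeR adjusted p = 0.0325), and the call was lost after summing (0.207) and without SM 1 (0.0521), SM 3 (0.0677), SM 4 (0.0703) or SM92 3 (0.0535). The log2 ratio differed by 5.70 ± 1.59 (limma adjusted p = 0.0233; 0.112 after summing).

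The pair ranked next lay on chromosome 12 (1157980 to 1158767 shared), and its log2 ratio was 1.52 or more in every SM library and -0.84 or less in every SM92 library. Its plus-strand gene had 0.717, 0.710, 0.668 and 0.455 CPM per kb in SM, and 0.721, 0.778, 0.600 and 0.489 in SM92. Its minus-strand gene had 0.219, 0.249, 0.140 and 0.157 in SM, and 1.48, 1.40, 1.53 and 1.42 in SM92. The minus-strand gene was higher in SM92 by 2.93 ± 0.21 (log2, edgeR adjusted p = 4.1e-05; 0.0104 after summing). Its partner differed by 0.02 ± 0.24 (edgeR adjusted p = 0.952). The log2 ratio differed by -2.94 ± 0.31 (limma adjusted p = 0.000228; 0.0271 after summing).

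After the pair on chromosome 2, the largest called difference of a ratio was in a divergent pair of chromosome 6 that shares 280 bases at its 5′ ends (22809651 to 22809930). Its minus-strand gene had 0, 1, 0 and 0 fragments in SM, and 303, 316, 202 and 198 in SM92. Its plus-strand gene had 0.700, 0.437, 0.636 and 0.643 CPM per kb in SM, and 1.18, 0.979, 1.33 and 1.39 in SM92. The minus-strand gene was higher in SM92 (edgeR adjusted p = 1.35e-05; 0.00639 after summing). With 1 fragment in all of SM, the scaled ratio of the line sums was 1214, with an exact 95% interval of 217 to 47997 from counting error alone. The plus-strand gene differed by 1.01 ± 0.20 (log2, edgeR adjusted p = 0.00598; 0.122 after summing). The log2 ratio differed by -7.80 ± 0.57 (limma adjusted p = 2.72e-05; 0.00966 after summing), a size that again depends on the added 0.5 fragments.

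Counted library by library, the members took the same share of all fragments in both lines, and slightly fewer pairs were read on both strands in SM92. The members held 4.30% ± 0.10 of fragments in SM and 4.31% ± 0.13 in SM92 (SD, n = 4 each; exact permutation test, two-sided, p = 1, and 0.8 after summing). Both partners reached 1 CPM in 59.0%, 59.5%, 60.2% and 60.6% of pairs in SM 1 to 4, and in 56.1%, 55.3%, 56.1% and 57.6% in SM92 1 to 4. The lines did not overlap, and the difference was -3.54 percentage points (exact permutation p = 0.0286, the smallest that 4 against 4 can give; 0.0857 adjusted over 3 quantities). After summing it was -3.34 with an exact permutation p of 0.1, the smallest that 3 against 2 can give. Neighbours that share no base moved the same way, from 17.6% ± 0.17 to 16.6% ± 0.27.

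The median imbalance of the partners, as the size of the log2 ratio per kb, was 1.71, 1.74, 1.84 and 1.88 in SM and 2.02, 2.09, 1.94 and 1.88 in SM92. The difference was 0.19 (exact permutation p = 0.0571, adjusted 0.0857), with the lines meeting at 1.88, and 0.21 after summing (exact permutation p = 0.2). In neighbours the imbalance was 1.85 ± 0.03 in SM and 2.05 ± 0.01 in SM92 (n = 4 each, exact permutation p = 0.0286).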

How the data were processed

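Strand-specific total RNA libraries (reversely stranded TruSeq, ribosomal RNA depleted) were made from 8 samples, per the labels' protocols. The authors deposited a table of raw fragment counts for each line, made with featureCounts 2.0.0, per the file headers. The headers give strand option 2, both ends aligned, no chimeric fragments, and the whole gene span of MSU release 7 as the feature, so intronic reads count. The submitters' processing notes also name FastQC, Trim Galore, STAR and DESeq2, without versions. Spans come from the deposited start and end.

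Line differences were tested with edgeR 4.0.16 (quasi-likelihood, TMM scaling, filterByExpr by line, Benjamini-Hochberg over all genes, threshold 0.05) in R 4.3.3, and partner ratios with limma 3.58.1 on log2((plus + 0.5)/(minus + 0.5)) over all opposite-strand pairs. DESeq2 1.42.0 was an alternative. Log2 CPM for r used a pseudocount of 0.1. Both models were tested on simulated data with independent libraries. The simulation had no nearly agreeing libraries and no infestation, so it cannot show how reliable the calls in these libraries are. Summaries used Python 3.11.15, pandas 2.3.3 and NumPy 2.4.6. A level is TMM-scaled CPM per kb of span.

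Pairs were named by rank: the highest weaker partner (3 pairs), opposite and same direction, ratio difference, a stronger partner that differs by line (2 pairs each, in which both partners average 50 fragments), and the longest overlaps. The rule for members uses coordinates alone, but it and the lists were set with earlier results of these data known. Of 39387 RefSeq rice genes, 0 matched the identifiers. No genome of this build was at hand, so no sequence is shown. Infestation contrasts and a four-group fit were not made, since columns could not be matched to samples.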

Additional observations from a re-analysis of the deposited data

Results flagged for a closer look

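For each named gene, the level in the 4 libraries of a line was examined for a library far from the other 3. Of 86 such sets, 6 stood apart. The limit used flags about 1 in 20 sets of 4 independent values by chance. Nearly agreeing libraries and sets at 0 depart from that, so the rate is only nominal here. LOC_Os02g01140 was highest in SM 2, at 3.09 CPM per kb against 1.30 to 1.51 in the other SM libraries. The minus-strand gene of the same-direction pair on chromosome 9 was lowest in SM 2, at 0.0373 CPM per kb. The other 4 rest on a few fragments. The minus-strand gene of the divergent pair at 22809651 to 22809930 of chromosome 6 had its only SM fragment in SM 2 (0.00699 CPM per kb). LOC_Os06g29270 had all of its SM fragments in SM 3 (0.00483) and all of its SM92 fragments in SM92 4 (0.00648). LOC_Os01g39050 was highest among SM libraries in SM 4 (0.0188), with 7 fragments.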

How the results depend on the processing

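No paired analysis was possible because no replicate number could be read from the names of the columns. Summing nearly agreeing libraries, an alternative chosen after seeing the data, moved every count of calls: members to 80, same-direction pairs to 3, opposite-direction pairs to 1 and ratio calls to 55. Its own construction, 5 samples in place of 8, lowers what can be called. The 8-library fits, in turn, count the 3 nearly agreeing pairs as separate samples, which can make their p-values too small. The part of each in the drop was not tested. Summing also took the line difference in the share of pairs read on both strands to -3.34 percentage points at an exact permutation p of 0.1. Leaving out one library at a time gave 303 to 411 members, 29 to 42 same-direction pairs, 10 to 28 opposite-direction pairs and 159 to 214 ratio calls. In the same fits 25.5% to 34.6% of members passed against 29.2% to 38.5% of all genes. Same-direction pairs made up 5.39% to 7.84% (4.82% to 8.60% of neighbours), opposite-direction pairs 1.85% to 5.22% (3.06% to 5.83%) and ratio calls 29.6% to 39.9% (28.2% to 39.3%). The difference in median imbalance (0.15 to 0.22 without one library) reached the smallest exact permutation p, 0.0286, without SM92 4 (0.22), with overlaps of at least 1 base (0.19) or 500 bases (0.20), and with the weaker partner at 1% or more (0.18), also chosen after seeing the data. After summing it was 0.21 at an exact permutation p of 0.2. The cause was not tested. Other scalings, DESeq2, no filter on low counts and the overlap limits left the counts of members and pairs called within 1.5 times of those given. By direction, no scaling beyond totals took the members higher in SM92 from 192 to 124 and those lower from 206 to 273. For 23 genes with a test, named by the ranks given above, 278 of 299 recomputed results stayed. The threshold was lost in 21 (10 of them by summing, where 13 stayed), and 0 reversed. Genes named only after values were seen are not among the 23. Several of the 23 did not pass with 8 libraries, so their results had no threshold to lose and count as stayed. Depth limits the genes with a few fragments per line, whose ratios have wide counting intervals.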
